A study of Mus musculus with 2 samples.

Results

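The glucocorticoid response genes described here are 10 mouse genes of steroid hormone signalling: the receptor Nr3c1, the hormone-activating enzyme Hsd11b1, the receptor cochaperone Fkbp5, and the target genes Tsc22d3, Dusp1, Errfi1, Sgk1, Zbtb16, Mt1 and Mt2. They were taken by symbol from a list, and all 10 were found among the 24421 genes of both libraries, with values above 0 in each. The messenger RNA came from 3T3-L1 cells, a mouse fibroblast-like line that forms fat cells in culture. The labels give the cell type as adipocyte, the strain background as C57BL/6 and the passages as 10 to 13. The DF library came from a culture that had DF, a mixture of several herbs that the sample title names DF-GA70, in its medium up to harvest. The control library came from a culture without DF. Per the labels' protocols both cultures were induced 2 days after confluence, for 2 days, with 0.25 µM dexamethasone, 0.5 mM IBMX and 1 µg/mL insulin in 10% fetal bovine serum, and then kept in insulin. The control is therefore a culture that had also been given a glucocorticoid. No source used here gives the dose of DF or the harvest day. There was 1 DF library and 1 control library, so no value has a replicate error and no test between the cultures was possible.

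Glucocorticoids enter the cell and bind the receptor, which is held ready by heat shock proteins and their cochaperones, moves to the nucleus and acts on DNA at glucocorticoid response elements. The enzyme encoded by Hsd11b1 regenerates active hormone inside the cell, and Fkbp5 is induced by the receptor and lowers its affinity for hormone, which closes a feedback loop. In preadipocytes a glucocorticoid is part of the standard cocktail that starts fat cell formation, and in adipose tissue these hormones restrain inflammation and act on lipid turnover.

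All values are on the deposited log2 scale, and a difference is DF minus control on that scale. A linear value is 2 to the power of the deposited value, which is a normalized value and not an amount of RNA. Genes at or above 8.18 (log2), the median of all values above 0, in at least 1 library were examined, and a gene was counted as higher or lower when the difference was at least 1.5-fold, or 0.58 log2 units. This is a rule of size and not a test. The library depths are unknown. Values are not divided by transcript length, so levels are compared between the libraries and not between genes. In bulk RNA such as this, fewer cells of a type and less RNA per cell cannot be told apart.

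Of the 10 genes, 1 was higher and 2 were lower with DF, and the other 7 lay within 1.5-fold. Dusp1, which encodes a phosphatase that switches off MAP kinases, was 2.09-fold higher. Fkbp5 was 1.87-fold lower and Hsd11b1 1.51-fold lower. Over all 6761 genes examined, 10.2% were higher and 10.9% were lower by the same rule, so the count of members is close to that of the whole library. The median difference of the 10 genes was 0.05 log2 units, and their differences ran from -0.90 to 1.07. The median was 0.01 for all examined genes above 0 in both libraries, and 0.04 for all genes above 0 in both libraries. Dusp1 and Zbtb16 lay below the level floor in the control and passed it through the DF library alone, which leaves 8 genes at the floor in both libraries. The plot of values by library shows that the wide gaps belong to Dusp1, Fkbp5 and Hsd11b1.

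**Figure D1:**
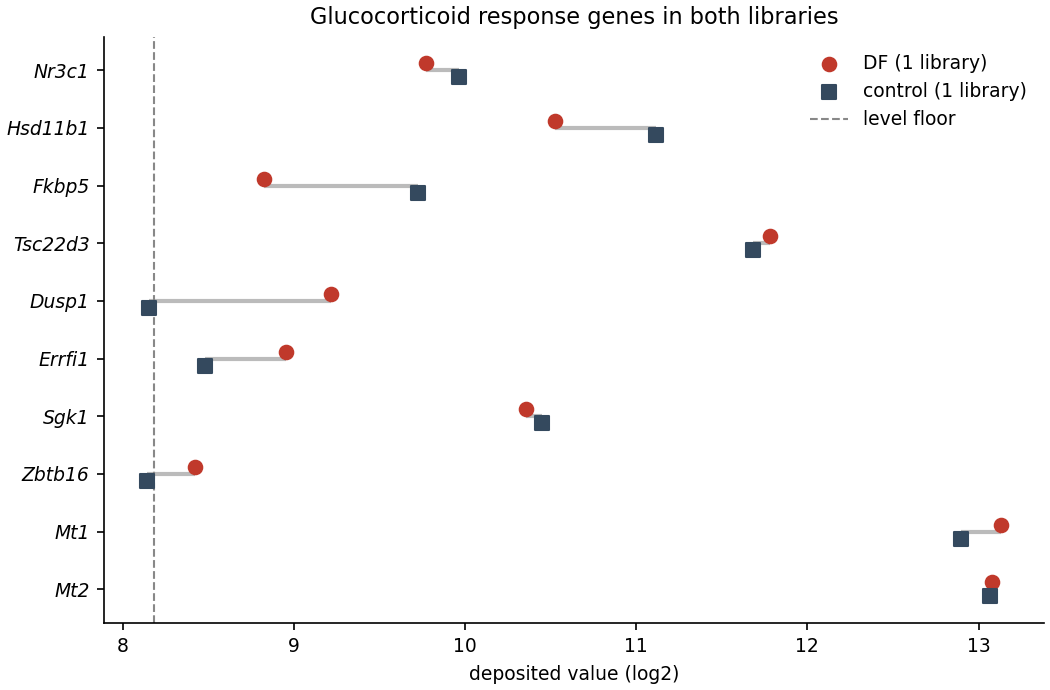
Deposited log2 value of each gene on the horizontal axis, with the DF library as circles above the control library as squares, and the level floor of 8.18 as a dashed line. Dusp1 stood at 9.22 with DF and 8.15 in the control, while the pairs for Mt2, Sgk1 and Tsc22d3 nearly coincide.

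The receptor itself differed little between the cultures. Nr3c1, the glucocorticoid receptor, stood at 9.77 in the DF library and 9.97 in the control library, a difference of -0.19, or 1.14-fold lower. Hsd11b1 stood at 10.53 with DF and 11.12 in the control, a difference of -0.59. On the linear scale that is 1475 with DF and 2219 in the control. Its 1.51-fold difference lies just past the limit of 1.5-fold, and with a pseudocount of 50 on the linear scale it was -0.57, inside the limit. Among the 1184 genes within 0.5 log2 units of its mean level, 6.5% were lower by 1.5-fold. H6pd, which encodes the enzyme that supplies the cofactor for hormone regeneration in the endoplasmic reticulum, was at 10.87 with DF and 11.10 in the control, within 1.5-fold. Hsd11b2, whose product inactivates glucocorticoids, was listed at 0 in both libraries, and so was Nr3c2, the mineralocorticoid receptor, which also binds glucocorticoids. Hsd11b1 lies on chromosome 1, 193221634 to 193264075 on the minus strand (GENCODE vM21 on GRCm38). Its span overlaps that of Lamb3, which was listed at 0 with DF and at 5.61 in the control.

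Fkbp5, the feedback cochaperone, had the lowest difference of the 10. It stood at 8.82 in the DF library and 9.73 in the control library, a difference of -0.90, which on the linear scale is 453.4 with DF and 847.1 in the control. Of 1830 genes within 0.5 log2 units of its mean level, 11.4% were lower by 1.5-fold and 3.11% were lower by 2-fold. Its relative Fkbp4, the cochaperone with which it competes for the receptor complex, was at 10.54 with DF and 10.58 in the control. The close relative was thus near equal in the libraries. Fkbp5 lies on chromosome 17, 28399094 to 28517527 on the minus strand.

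The target genes that act on kinases differed from each other. Dusp1 stood at 9.22 in the DF library and 8.15 in the control library, a difference of 1.07, which on the linear scale is 595.5 with DF and 284.4 in the control. Of 1900 genes within 0.5 log2 units of its mean level, 11.8% were higher by 1.5-fold and 2.68% by 2-fold. Errfi1, which encodes an inhibitor of the EGF receptor, was at 8.96 with DF and 8.48 in the control, 1.39-fold higher and within the limit. Sgk1, the serum and glucocorticoid regulated kinase, was at 10.36 with DF and 10.45 in the control, 1.07-fold lower. The gene of the MAP kinase phosphatase was thus the single member counted as higher. Dusp1 and Sgk1 are also known to respond to serum and to cell stress.

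The anti-inflammatory and transcriptional targets were near equal in the libraries. Tsc22d3, which encodes the leucine zipper protein GILZ, was at 11.78 with DF and 11.68 in the control, a difference of 0.10. Zbtb16, which encodes the zinc finger repressor PLZF, was at 8.42 with DF and 8.14 in the control, 1.22-fold higher. The RefSeq windows give Tsc22d3 3 start sites, and reads from transcript ends do not separate the forms that share an end.

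The metallothionein genes encode small cysteine-rich proteins that bind zinc and copper and are raised by glucocorticoids and by metals. Mt1 was at 13.13 in the DF library and 12.90 in the control library, a difference of 0.23. Mt2 was at 13.08 with DF and 13.07 in the control, a difference of 0.01. Both genes held almost the same place in the libraries, with Mt1 at rank 310 with DF and 372 in the control, and Mt2 at rank 323 with DF and 324 in the control. They are neighbours on chromosome 8, Mt2 at 94172664 to 94173568 and Mt1 at 94179082 to 94180327, both on the plus strand. No 75-base stretch, the read length, in the last 500 bases of the longest coding transcript of Mt1 occurs in transcripts of another gene. For Mt2 this was 130 of 426 stretches, all in Gm45774, which overlaps its end on the other strand. No source used here says whether counting used the strand, so the value of Mt2 is less certain. The other 9 genes shared no such stretch with another gene.

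**Figure D2:**
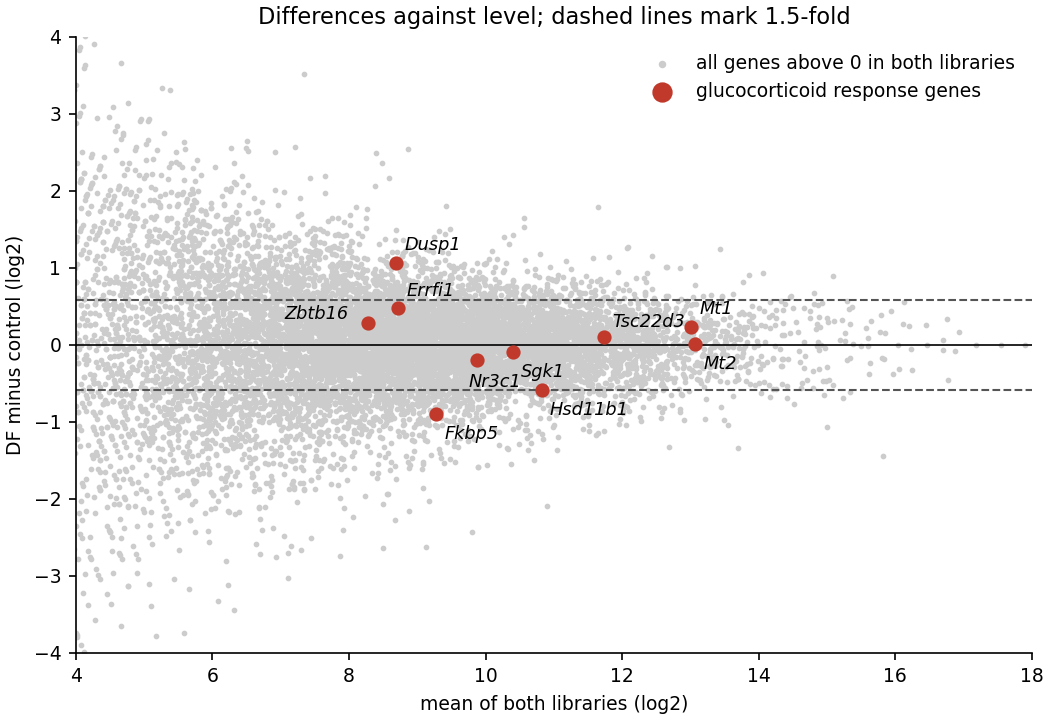
DF minus control (log2) on the vertical axis against the mean of both libraries (log2), with grey points for genes above 0 in both libraries and red points for the 10 glucocorticoid response genes; dashed lines mark 1.5-fold. Dusp1 lies above the upper line, Fkbp5 well below the lower one and Hsd11b1 on its edge; 795 genes outside the axes are not drawn.

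With 2 libraries the pattern of a gene is a pair of values, and the genes nearest to a member are those with the shortest distance over both values. For Dusp1 these were B4galt3 (9.31 with DF and 8.11 in the control) and Adck4 (9.11 with DF and 8.12 in the control), at 0.10 and 0.11 log2 units. For Fkbp5 they were Rcn2 and 1110004F10Rik, each at 0.07. For Hsd11b1 they were Cdc42bpb at 0.06 and Angptl2 at 0.07.

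Promoter sequences of RefSeq on GRCm38.p6 were found for 8 of the 10 genes, in 16 windows of 300 bases that run from 250 before to 50 after a start site. Zbtb16 and Nr3c1 were not among them. The windows were searched on both strands for 4 motifs: the full glucocorticoid response element (AGAACA, any 3 bases, TGTTCT), a relaxed form of it (GNACA, any 3 bases, TGTNC), the full cAMP response element TGACGTCA, and the metal response core (TGCACNC or TGCGCNC). Every full glucocorticoid element also holds the relaxed one. A match is a description of these letters and says nothing of binding in these cells.

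The promoters of Dusp1 and Errfi1 are shown because both hold the full cAMP response element, and that of Fkbp5 as the gene with the lowest difference. The window of Fkbp5 holds none of the 4 motifs. Neither do the 3 windows of Tsc22d3, which was near equal, or some of those of Sgk1 and Errfi1. Sequence outside the windows was not searched, so a window without a match does not show that the gene lacks the motif. The capitals mark the cAMP response element, read 5′ to 3′ on the strand of the gene. In Dusp1 it lies 143 to 136 bases before the start site, and in the second window of Errfi1 51 to 44 bases before it. Of all 32851 windows, 588 (1.79%) hold this element. This share is per window and not per gene, since some genes have several windows and others none.
Dusp1, chr17:26508423-26508722, minus strand: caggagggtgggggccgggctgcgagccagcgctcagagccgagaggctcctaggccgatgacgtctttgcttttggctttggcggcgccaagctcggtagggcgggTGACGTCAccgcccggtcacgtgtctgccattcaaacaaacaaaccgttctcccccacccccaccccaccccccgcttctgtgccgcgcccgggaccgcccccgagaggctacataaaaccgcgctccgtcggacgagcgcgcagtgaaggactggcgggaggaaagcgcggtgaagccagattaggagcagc
Errfi1, chr4:150854820-150855119, plus strand: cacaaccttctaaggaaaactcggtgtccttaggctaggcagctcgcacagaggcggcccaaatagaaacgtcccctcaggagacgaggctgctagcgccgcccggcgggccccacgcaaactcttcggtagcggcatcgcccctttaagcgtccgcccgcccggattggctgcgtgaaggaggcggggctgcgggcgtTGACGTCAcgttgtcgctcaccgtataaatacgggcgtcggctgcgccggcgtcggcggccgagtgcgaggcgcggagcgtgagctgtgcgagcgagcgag
Fkbp5, chr17:28486100-28486399, minus strand: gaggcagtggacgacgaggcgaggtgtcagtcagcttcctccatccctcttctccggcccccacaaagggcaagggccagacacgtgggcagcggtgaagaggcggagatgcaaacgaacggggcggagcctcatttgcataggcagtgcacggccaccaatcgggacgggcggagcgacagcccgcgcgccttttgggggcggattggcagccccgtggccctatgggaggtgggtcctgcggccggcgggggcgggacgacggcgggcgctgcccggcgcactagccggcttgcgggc

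The element binds CREB, the factor activated by cAMP, and IBMX in the induction medium of both cultures is an inhibitor of cAMP breakdown. Dusp1 and Errfi1 were 2.09-fold and 1.39-fold higher with DF, as given above. Whether cAMP or CREB had a part in these differences was not tested. Over all 196 examined genes with this element in a window, 10.2% were higher by 1.5-fold and 12.2% lower, against 10.3% higher and 10.5% lower among the 5240 examined genes that have a window, so these shares were close to those of all such genes.

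Sgk1 has 6 windows in the table, and its window with the full glucocorticoid response element is shown, with that element in capitals. It lies 189 to 175 bases before the fifth start site. Among all 32851 windows, 3 (0.00913%) hold it, and the other 2 belong to Acnat2, listed at 0 in both libraries, and Gm35041, which the files do not list.
Sgk1, chr10:21993640-21993939, plus strand: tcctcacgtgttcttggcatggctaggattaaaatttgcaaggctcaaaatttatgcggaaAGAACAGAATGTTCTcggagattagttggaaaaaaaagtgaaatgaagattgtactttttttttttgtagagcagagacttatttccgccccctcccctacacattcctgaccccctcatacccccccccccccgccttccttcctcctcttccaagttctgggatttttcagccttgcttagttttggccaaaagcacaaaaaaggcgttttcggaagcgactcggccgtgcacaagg

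Sgk1 itself was near equal in the libraries (10.36 with DF and 10.45 in the control). Which of its start sites was used cannot be read from transcript ends.

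The promoters of Mt1 and Mt2 are shown because they hold several metal response cores, in capitals, 3 in Mt1 and 4 in Mt2. At least 3 such cores occur in 1.97% of all windows. Mt1 also holds the relaxed glucocorticoid element, 94 to 82 bases before its start site, which 0.475% of windows hold.
Mt1, chr8:94178839-94179138, plus strand: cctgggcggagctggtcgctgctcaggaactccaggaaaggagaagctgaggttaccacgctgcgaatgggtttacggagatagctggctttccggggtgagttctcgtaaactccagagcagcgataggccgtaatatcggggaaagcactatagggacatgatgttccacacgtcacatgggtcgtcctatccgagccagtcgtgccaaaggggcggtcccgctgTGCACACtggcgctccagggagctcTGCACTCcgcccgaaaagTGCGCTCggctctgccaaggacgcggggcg
Mt2, chr8:94172368-94172667, plus strand: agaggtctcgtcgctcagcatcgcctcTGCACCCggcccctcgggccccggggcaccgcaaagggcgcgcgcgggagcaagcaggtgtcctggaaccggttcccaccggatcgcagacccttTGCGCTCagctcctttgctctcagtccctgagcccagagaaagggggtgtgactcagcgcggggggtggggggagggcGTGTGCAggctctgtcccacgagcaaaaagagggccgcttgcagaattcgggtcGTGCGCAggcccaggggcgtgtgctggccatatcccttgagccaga

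Both genes were within 1.5-fold, and among the 228 examined genes with at least 3 cores 8.33% were higher and 7.02% lower. Among all 5240 examined genes with a window, 10.3% were higher and 10.5% lower. In the map of motif positions the metal cores lie near the start site in Mt1 and are spread over the window in Mt2.

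**Figure D3:**
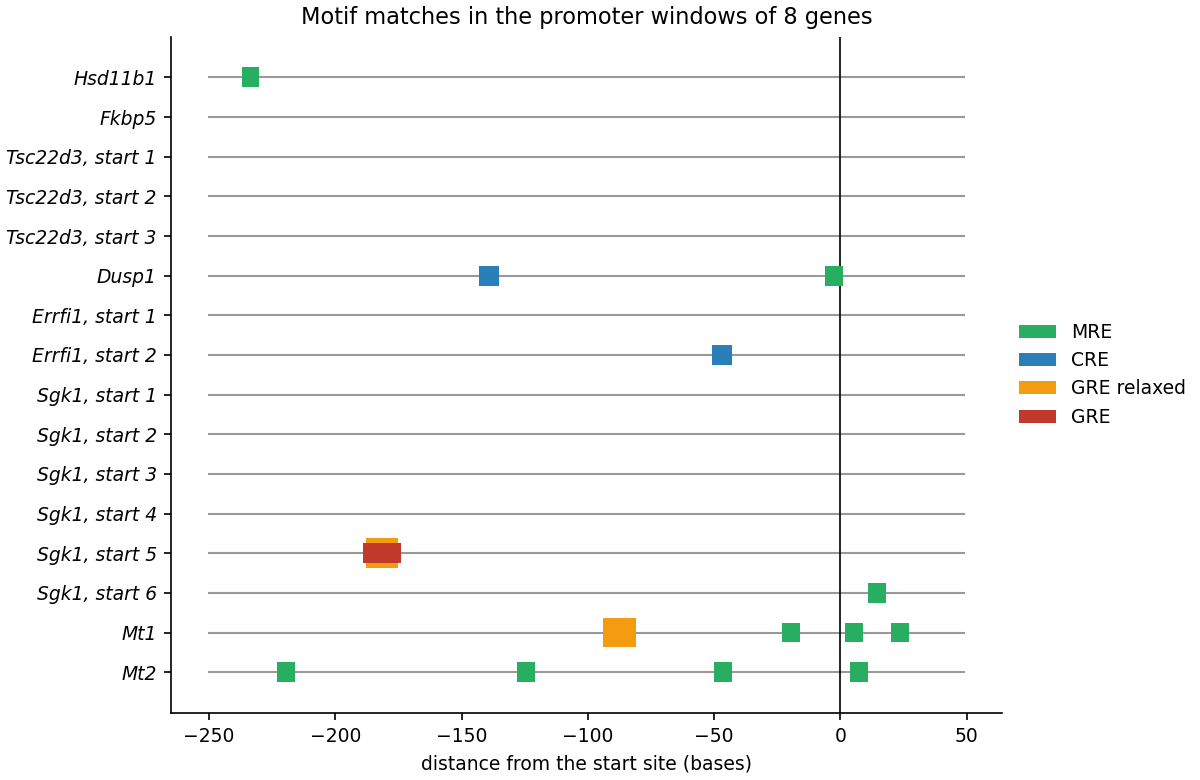
Distance in bases from each start site on the horizontal axis, with 1 row for each of the 16 promoter windows and coloured boxes for motif matches (MRE, metal response core; CRE, cAMP response element; GRE, glucocorticoid response element). The full glucocorticoid element stands at the fifth start of Sgk1, the cAMP elements in Dusp1 and Errfi1, and the metal cores are most numerous in Mt1 and Mt2.

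The wider pathway was described with 8 lists that leave the 10 genes out. They hold 153 genes of the files, of which 96 were examined, 8 were higher (8.33%) and 7 were lower (7.29%). The median difference of those above 0 in both libraries was 0.00 log2 units. These shares are close to the 10.2% and 10.9% of all genes examined. The shares of all genes examined are also the background for the count of each list below.

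Genes that fold the receptor lay near equal. Of 16 examined, 1 was higher and 0 were lower, with a median of 0.10. Hsp90ab1, the chaperone that holds the receptor ready, stood at 16.04 in both libraries, at rank 19 in each. Once sorted, both files begin with the same 140 values, so this value and those of Fkbp1a, Lpl, Cfd, Cd36, Dlk1 and Col1a2 are set by rank alone, as are the control values of Cebpb and Lpin1. Dnaja1, a cochaperone of the heat shock system, was at 13.16 with DF and 12.56 in the control, 1.51-fold higher; it overlaps exons of Smu1 on the other strand. Among coregulators 0 of 11 examined were higher and 1 was lower, and the median of the 13 above 0 in both libraries was -0.13. Ncoa2, a coactivator of the receptor also called GRIP1, was at 6.79 with DF and 8.40 in the control, 3.04-fold lower; it reached the floor only in the control. Ncor1, a corepressor whose exons meet those of Pigl and Ttc19 on the other strand, was at 12.45 with DF and 12.74 in the control, and Smarca4, the motor of a chromatin remodelling complex, at 11.25 with DF and 10.91 in the control. Among genes of steroid supply and clearance 0 of 3 examined passed the limit, with a median of -0.11 over 5 genes, and Ugt1a6a was at 10.59 with DF and 10.71 in the control. Ugt1a6a shares exons with its Ugt1a neighbours, so its reads cannot be assigned to it alone.

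Other genes known to be raised by glucocorticoids went both ways. Of 27 examined, 2 were higher and 3 lower, and the median of 38 genes was -0.09. Mgll, the monoglyceride lipase, was at 11.38 with DF and 9.74 in the control, 3.13-fold higher. Sesn1, a stress-induced regulator of mTOR, was at 8.77 with DF and 7.93 in the control, 1.80-fold higher; it reached the floor with DF alone. The lower genes were transcription factors of early fat cell formation and a membrane reductase. Cebpb was at 13.02 with DF and 14.36 in the control, 2.54-fold lower, and Cebpd 1.60-fold lower. Both overlap exons of a coding gene on the other strand, Tmem189 and Spidr, so their reads are less certain. Cyb561, which encodes cytochrome b561, was at 9.33 with DF and 10.13 in the control, 1.73-fold lower. Lpin1, which encodes a phosphatidate phosphatase, was at 13.96 with DF and 14.10 in the control. Several familiar targets were within 1.5-fold, among them Per1 (11.24 with DF and 10.95 in the control), Klf9 (11.99 with DF and 12.24 in the control) and Ddit4 (11.34 with DF and 11.12 in the control), named after their values were seen.

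Inflammatory genes that glucocorticoids repress were mostly low or listed at 0. Of 17 genes 6 were listed at 0 in both libraries, among them Il6 and Tnf, and 3 were examined, of which 0 were higher and 2 lower. Csf1, the macrophage growth factor, was at 8.42 with DF and 9.49 in the control, 2.09-fold lower, and Vcam1, the adhesion molecule, at 8.77 with DF and 9.82 in the control, 2.07-fold lower. Rela, a subunit of NF-kB, was at 9.74 with DF and 10.09 in the control. The median of 9 genes above 0 in both libraries was -0.90, and 6 of these 9 lay below the level floor in both.

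Relatives and partners of the members mostly lay within 1.5-fold. Among the 16 relatives examined, 2 were higher and 0 lower, and the median of the 25 above 0 in both libraries was 0.20. Fkbp2 was at 9.71 with DF and 8.91 in the control and Fkbp7 at 9.32 with DF and 8.67 in the control, both prolyl isomerases of the endoplasmic reticulum. Fkbp1a, the target of the drug tacrolimus, was at 15.06 with DF and 14.70 in the control, and Tsc22d1 at 12.63 with DF and 12.43 in the control. Mt3 and Mt4 were listed at 0 in both libraries. In the kinase list 1 of 13 examined was higher and 1 lower, and the median of the 15 above 0 in both libraries was -0.07. Nedd4l, a ubiquitin ligase that Sgk1 phosphorylates, was at 9.45 with DF and 8.56 in the control, 1.85-fold higher. Mapk9, which encodes the kinase JNK2, a substrate of the Dusp1 phosphatase, was at 10.46 with DF and 11.66 in the control, 2.28-fold lower. Mapk3 and Pdpk1 were near equal, at 12.27 and 11.78 with DF and at 12.34 and 11.85 in the control. Among the 8 zinc and metal genes examined, 2 were higher and 0 lower, and the median of the 11 above 0 in both libraries was 0.10. Slc30a1, the zinc exporter that shares metal control with the metallothioneins, was at 8.57 with DF and 7.95 in the control, 1.53-fold higher; it too reached the floor with DF alone. Hmox1, heme oxygenase, was at 12.37 with DF and 11.65 in the control, 1.64-fold higher. Slc39a7, a zinc transporter located in the secretory pathway, was at 12.86 with DF and 13.20 in the control.

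**Figure D4:**
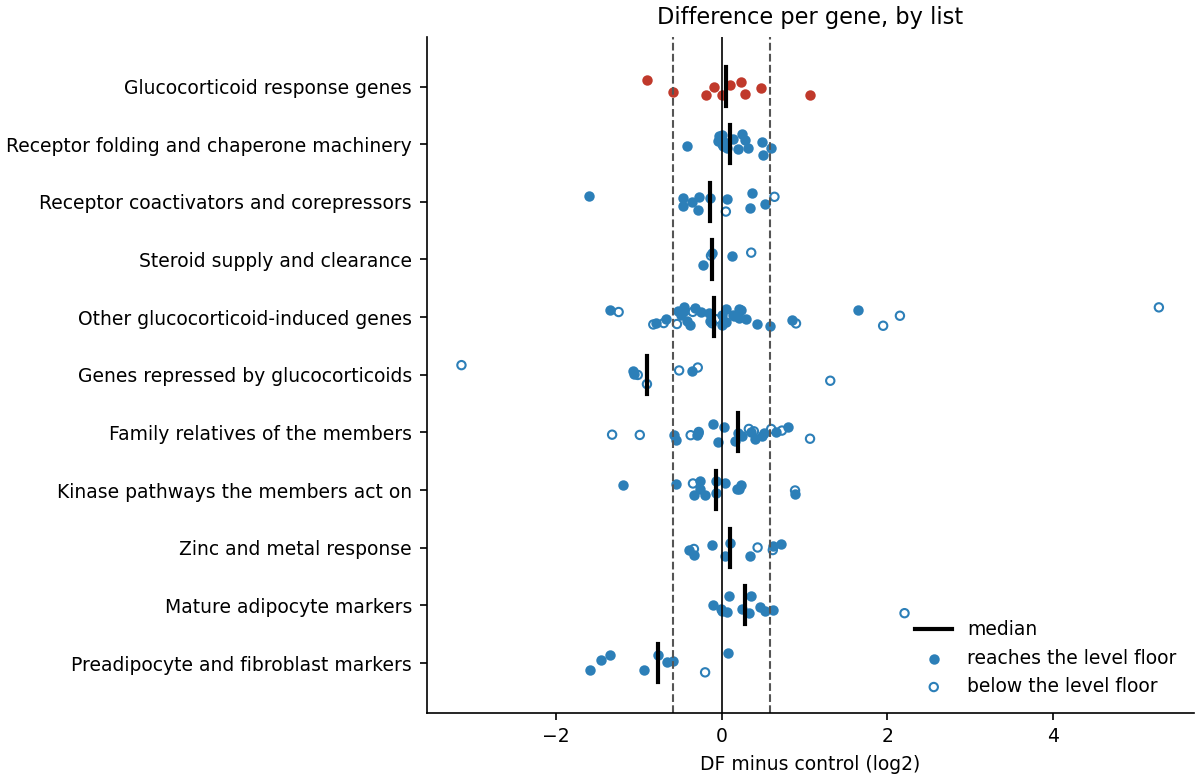
DF minus control (log2) for each gene above 0 in both libraries, by list, with filled points for genes that reach the level floor, open points for those below it, black bars for medians and dashed lines at 1.5-fold. The 10 glucocorticoid response genes in red have a median of 0.05, and the preadipocyte and fibroblast markers lie furthest to the left among lists whose members mostly reach the floor.

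Cell type markers differed between the cultures beside these values. Mature adipocyte markers were present, with Lpl at 17.55 in both libraries and Cfd at 16.92 with DF and 16.58 in the control. Of 11 examined 1 was higher (Cd36, 1.54-fold) and 0 lower, and their summed linear value was 656492 with DF and 584409 in the control. Most of that sum comes from genes among the 140 shared highest values, and the 4 markers outside them summed to 16081 with DF and 14482 in the control. Of 8 preadipocyte and fibroblast markers examined 0 were higher and 6 lower, where 10.2% of all genes examined were higher and 10.9% lower. The linear values of all 9 listed markers of this kind summed to 73973 with DF and 160727 in the control. Dlk1 makes up most of that gap, and without it and Col1a2, both among the 140, the other 7 summed to 20940 with DF and 34452 in the control. Dlk1 was 2.73-fold, Ly6a 3.01-fold and Col1a2 1.70-fold lower. The part of this difference in the values of Fkbp5, Hsd11b1, Dusp1, Cebpb, Csf1 and Vcam1 was not tested. No marker of macrophages, endothelium or epithelium reached the floor. Adgre1, Fcgr1, Kdr, Tek, Vwf, Emcn, Epcam, Krt5 and Krt8 were listed at 0 in both. The highest values of these lists were low, with Cd68 at 4.88 with DF and 2.83 in the control, Ptprc at 2.64 with DF and 4.33 in the control, Pecam1 at 2.83 with DF and 6.49 in the control, and Krt18 at 5.15 with DF and 7.31 in the control. Cdh5 was at 2.13 and Cdh1 at 4.33 with DF, and both were listed at 0 in the control. The summed linear values were 63.5 with DF and 35.6 in the control for macrophage markers, 11.5 with DF and 89.8 in the control for endothelial ones, and 55.6 with DF and 161.8 in the control for epithelial ones.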

How the data were processed

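Messenger RNA of 1 DF and 1 control culture of 3T3-L1 adipocytes was sequenced from transcript 3' ends (500 ng of total RNA, single 75 nt reads, per the labels' protocols). The deposited values are log2 values per gene symbol, made by the authors. Bowtie2, edgeR and mm10 are named in the submitters' processing notes; no source used here gives their versions, the counter, the annotation, the strand setting or the normalization. The 140 highest sorted values are identical in both files, and 100% of linear values under 1000 lie within 0.001 of a multiple of 1/8, so the values appear to have been brought to a common distribution, which removes any difference in total output. Every value, those of the 10 genes included, then depends on the rank in its library: below the 140, too, sorted values are close, and over all 12337 ranks above 0 in both files 97.9% lie within 0.1 log2 units. Linear values are normalized values, not amounts. Depth is unknown, and no interval or detection limit was computed.

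Differences were computed as DF minus control with no pseudocount (Python 3.11.15, pandas 2.3.3, numpy 2.4.6). The counting code was run on simulated data with planted differences well past the limit and little noise. That run checks the code and says nothing of how reliable the counts given here are. With 1 library per group no p-value is given, and nothing shows the variation between cultures. Members and lists were chosen with earlier results of these data known. All members are named. In each list the 2 genes with the highest values are named, and up to 2 beyond 1.5-fold in each direction by size of difference. Fkbp4 and Txnip were named outside this rule, with their values known. Other names are marked or come from counts of few genes. Alternatives were other floors, a 2-fold limit, pseudocounts of 50 and 300, and centring on all genes or on genes of similar level. Positions are from GENCODE vM21 (23376 symbols matched) and promoter windows from RefSeq (GRCm38.p6).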

Additional observations from a re-analysis of the deposited data

How the results depend on the processing

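The 3 counted differences (Dusp1, Fkbp5 and Hsd11b1) kept their direction under every alternative run, but this was fixed in advance. A pseudocount, a floor or a 2-fold limit cannot reverse a difference, and the shifts from centring were far smaller than these 3. With a pseudocount of 50 or 300 on the linear scale Hsd11b1 no longer reached 1.5-fold (-0.57 and -0.51), and the count of lower genes became 1 at 50. Across the 40 recomputed member differences, 38 stayed on their side of 1.5-fold and 2 did not. A pseudocount only shrinks a difference, so members within 1.5-fold could not cross the limit under it. Centring on all genes moved each difference by 0.04, and centring on genes of similar level by less. The 38 are therefore a weak check. With the floor at the upper quartile (9.92), 0 members were higher and 1 lower; fewer genes are examined there. At 2-fold, 0 members were lower and Dusp1 was still higher. For the pathway lists, 3 genes were higher and 3 lower at the upper quartile, 19 higher and 15 lower with no floor, and 1 higher and 5 lower at 2-fold. Of 104 recomputed counts of single lists, 76 were within 1.5 times the reported one and 28 were not. Many of the reported counts were 0, and a higher floor, a 2-fold limit or a pseudocount cannot raise a count of 0. Many of the 76 were therefore fixed in advance, and their number does not measure how stable the lists are. No replicate could be left out, since each group has 1 library. No paired analysis was possible because each group has 1 library. The unknown depth and the single libraries limit every difference given here.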

Other observations

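The relaxed glucocorticoid element (GNACA, any 3 bases, TGTNC) occurred in a promoter window of 93 genes of the files, of which 19 were examined, Mt1 and Sgk1 among them. Of these 19 genes 6 (31.6%) were higher by 1.5-fold with DF and 0 were lower, against 10.3% and 10.5% of all examined genes with a window. The 6 were Scd3, a stearoyl-CoA desaturase (11.11 with DF and 9.68 in the control, 2.68-fold, with close relatives that may share its reads), Cisd3, a mitochondrial iron-sulphur protein (9.51 with DF and 8.23 in the control, 2.42-fold), Zgpat (8.37 with DF and 7.54 in the control), which overlaps exons of its neighbours, Ndc1 (8.57 with DF and 7.85 in the control), Fkbp7 and the AP-1 gene Jund (12.16 with DF and 11.57 in the control, a difference of 0.59). Zgpat and Ndc1 lay below the floor of 8.18 in the control and passed it through the DF library alone, so the count is no support. The motif was chosen with the values known, the genes are few, and the difference was not tested. Txnip, which encodes a thioredoxin inhibitor, also holds the element and was at 15.24 with DF and 15.42 in the control, values among the 140 that both libraries share, which compare ranks.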
